A study of Sus scrofa with 4 samples.

Results

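Genes that mark neutrophils were followed here across spleen arrays of miniature pigs: the alarmins S100A8, S100A9 and S100A12 and the granule protein genes LTF and PGLYRP1. Their probes were found as those, other than controls, whose design names a pig RefSeq transcript of 1 of these genes. All 5 genes were found, among 3020 genes with a named probe, and they were measured by 6 of 43603 probes because LTF had 2. All 6 probes passed the filter on low values, which asked for a signal well above background on at least 1 array. Spleen RNA of Minnesota miniature swine was hybridised to 4 one-colour Agilent arrays. Of these, 3 carried RNA from wild-type pigs (WT 1, WT 2 and WT 3) and 1 carried RNA from a pig labelled IL2RG +/- (KO), in which TALENs had disrupted IL2RG on 1 allele. The product of IL2RG is a subunit common to several interleukin receptors and is needed for lymphocyte development. The KO pigs of the study were cloned from edited cells by nuclear transfer, and the ages of the pigs on these arrays are not given in the sources used here. The labels do not say whether the WT arrays came from separate pigs, so the p-values measure the spread between these samples, which may be technical.

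Neutrophils carry large amounts of calcium-binding S100 proteins in their cytosol. S100A8 and S100A9 form calprotectin, which binds zinc and manganese, and S100A12 is a close relative. When released, these proteins act as alarmins, signals of injury or infection that are sensed through receptors such as TLR4 and AGER. Lactoferrin (LTF) is an iron-binding protein of the specific granules, and PGLYRP1 is a granule protein that binds bacterial peptidoglycan. Granule protein transcripts are made mainly while neutrophils mature in the marrow, whereas S100A8 and S100A9 transcripts are also abundant in mature neutrophils and in monocytes. In the Sscrofa11.1 annotation, S100A8, S100A12 and S100A9 follow each other on chromosome 4 as neighbouring protein-coding genes, whereas LTF lies on chromosome 13 and PGLYRP1 on chromosome 6.

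Between 66.1% and 72.7% of spots were well above background on an array, and 0 spots were saturated. WT 1 and KO lay on slide 1, and WT 2 and WT 3 on slide 2. Both IL2RG probes were lowest on the KO array, at log2 differences of −0.77 and −2.12 from the WT mean (limma adjusted p = 0.578 and 0.403). The red pulp and macrophage genes HMOX1 and C1QB were well above background on every array, at log2 signals of 7.47 to 8.39 and 8.03 to 8.96. Among B cell markers, MS4A1 and CD79A were below the WT range on the KO array, at log2 differences of −4.92 and −4.12, and CD72 was above it, at 1.49. Every log2 value below is the processed signal of a probe relative to the 75th percentile of its array, so that 0 is the level of that percentile. Probes differ in how well they bind, so only the movement of each probe between arrays was compared.

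The 5 genes varied widely among the WT arrays, and the KO array lay inside the WT range for each of them. S100A8 had log2 signals of −1.17, 2.53 and 5.21 on WT 1, WT 2 and WT 3, and 2.01 on KO. The corresponding processed signals were 285, 4719, 30262 and 2594. WT 1 was the lowest array, WT 3 the highest, and KO sat close to WT 2. The WT mean was 2.19 ± 3.20 (SD, n = 3), and the KO difference of −0.18 (SE 2.65) did not pass the limma test (adjusted p = 0.983).

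S100A9, the partner of S100A8 in calprotectin, had log2 signals of −2.58, 0.089 and 3.01 on WT 1, WT 2 and WT 3, and 0.64 on KO. The array order was that of S100A8, except that KO exceeded WT 2. The KO array differed by 0.46 (SE 2.32) from the WT mean of 0.17 ± 2.79 (SD, n = 3; limma adjusted p = 0.946). S100A12 had log2 signals of −1.14, 2.27 and 4.96 on WT 1, WT 2 and WT 3, and 2.64 on KO. Again WT 1 was lowest, WT 3 highest and KO just above WT 2. The difference was 0.61 (SE 2.53) from a WT mean of 2.03 ± 3.06 (SD, n = 3; limma adjusted p = 0.934).

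By its brighter probe, LTF had log2 signals of −2.36, 2.03 and 4.55 on WT 1, WT 2 and WT 3, and −0.16 on KO. Here KO fell between WT 1 and WT 2. The difference of −1.57 (SE 2.89) from the WT mean of 1.41 ± 3.49 (SD, n = 3) did not pass the limma test (adjusted p = 0.836). The dimmer LTF probe read −6.66, −3.04, 0.45 and −4.27 on WT 1, WT 2, WT 3 and KO, and it was not well above background on WT 1. Both LTF probes placed the arrays in the same order. PGLYRP1 had log2 signals of −1.31, 0.80 and 3.26 on WT 1, WT 2 and WT 3, and −1.04 on KO, which was close to WT 1. The difference was −1.96 (SE 1.90) from a WT mean of 0.92 ± 2.29 (SD, n = 3; limma adjusted p = 0.697).

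**Figure D1:**
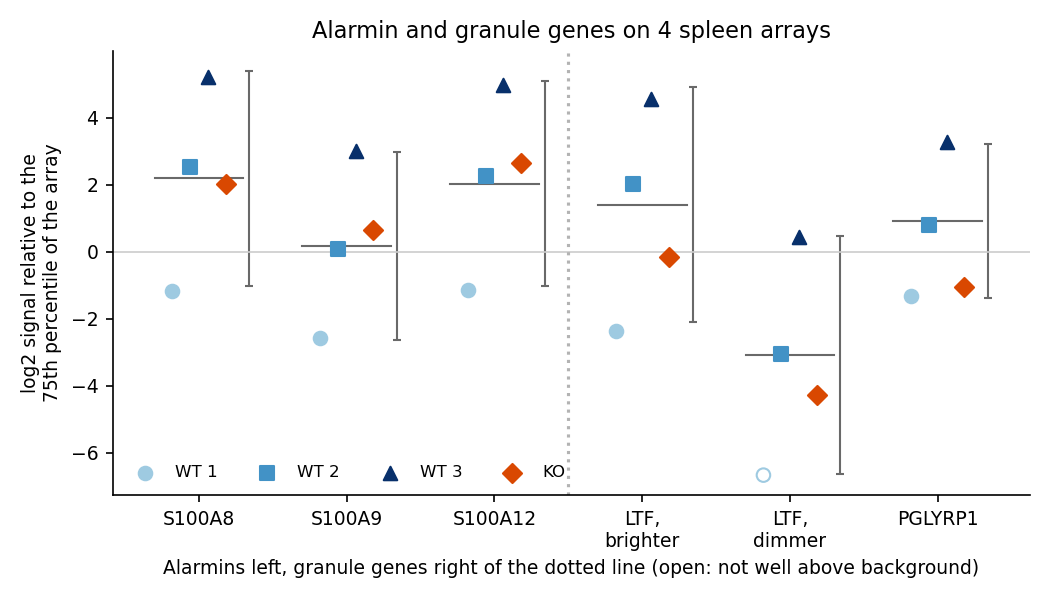
Log2 signal of each member probe relative to the 75th percentile of its array, on 3 WT arrays and the KO array. Horizontal lines are WT means, vertical bars are the WT mean ± 1 SD (n = 3) and the open circle is a spot not well above background. KO lies inside the WT range for all 6 probes, beside WT 2 for the alarmins and nearer WT 1 for PGLYRP1.

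None of the 5 genes passed the limma test, and 0% of the 33470 probes tested did (adjusted p under 0.05 with a 2-fold difference). At an unadjusted p under 0.05, 0 of the 5 genes passed, against 11.3% of all probes, 3775 in number. KO lay inside the WT range for 5 of 5 genes and outside it for 0, against 38.1% and 61.9% of all probes. With 1 KO array against 3 WT arrays, the spread is that of the WT arrays alone and the KO array is assumed to vary like them. LTF and PGLYRP1 were at least 2-fold below the WT mean, as were 13.4% of all probes, and 0 of the 5 genes were at least 2-fold above it, against 7.71%. The median difference of the 5 genes was −0.18, beside −0.11 over all probes.

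The sign of the alarmin differences turned on single WT arrays. LTF turned positive only by 0.0025, and PGLYRP1 stayed negative whichever WT array was left out. Without WT 1 the KO difference was −1.86 for S100A8, −0.91 for S100A9, −0.98 for S100A12, −3.45 for LTF and −3.07 for PGLYRP1. Without WT 3 it was 1.32 for S100A8, 1.88 for S100A9, 2.07 for S100A12, 0.0025 for LTF and −0.79 for PGLYRP1. KO was therefore below the mean of WT 2 and WT 3 for all 5 genes, and below the mean of WT 1 and WT 2 for PGLYRP1 alone.

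The members differed far more among the WT arrays than most probes did. WT 3 exceeded WT 1 by 83.0-fold for S100A8, 48.1-fold for S100A9, 68.7-fold for S100A12, 120-fold for LTF and 23.8-fold for PGLYRP1. All 5 genes had a WT range of at least 16-fold, against 1.63% of all probes. The median WT SD of the 5 genes was 3.06 on the log2 scale, beside 0.33 over all probes, and between 0.427% and 1.41% of probes had a larger WT SD than a given member. All 5 genes also shared 1 order, with WT 2 at least 2-fold above WT 1 and WT 3 at least 2-fold above WT 2, an order met by 0.732% of all probes. Fewer neutrophils, less RNA of these genes per neutrophil and RNA from other cells, such as monocytes, cannot be told apart in bulk spleen RNA.

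The spread was present within a slide. On slide 2, WT 3 exceeded WT 2 by between 5.52-fold for PGLYRP1 and 7.57-fold for S100A9. A difference of at least 4-fold between these arrays was seen for 5 of 5 genes and for 0.959% of all probes. On slide 1, KO exceeded WT 1 by 3.17 on the log2 scale for S100A8, 3.21 for S100A9, 3.78 for S100A12 and 2.19 for LTF, but by 0.26 for PGLYRP1. These 4 genes were at least 4-fold above WT 1, against 2.02% of all probes. At 2-fold the count was also 4 genes above, against 7.94% of all probes, and 0 below, against 8.07%. With slide as a block in limma, the KO effect is the difference from WT 1. The only spread left to that fit is WT 3 against WT 2 on slide 2, so no p is given for it. The within-slide median of the 5 genes was 3.17, beside −0.03 over all probes. Against WT 3, on the other slide, KO was at least 2-fold lower for all 5 genes, as it was for 19.3% of all probes.

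**Figure D2:**
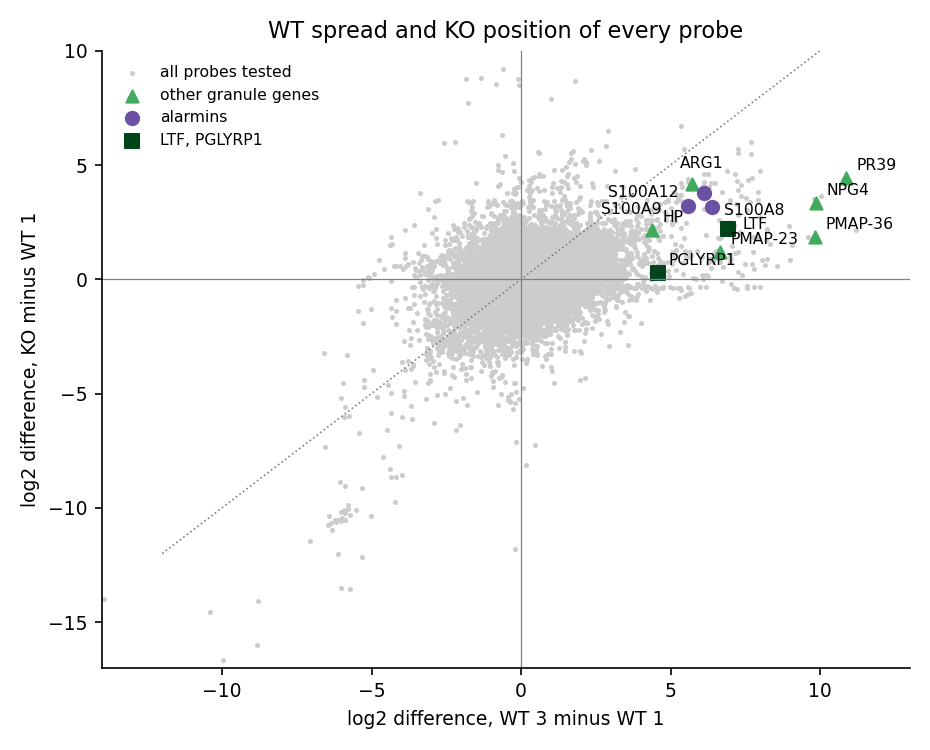
Each point is a probe, with the log2 difference of WT 3 from WT 1 on the horizontal axis and of KO from WT 1 on the vertical axis, and the dotted line marks equal differences. The alarmins lie to the right and above 3 on the vertical axis, LTF lies at 2.19 and PGLYRP1 at 0.26. Both axes share the WT 1 array.

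The mean of the alarmins and the mean of LTF and PGLYRP1 moved together among the WT arrays and parted on the KO array. LTF and PGLYRP1 themselves did not keep a fixed ratio on the WT arrays, as given below. The mean log2 signal of the 3 alarmins was −1.63, 1.63 and 4.39 on WT 1, WT 2 and WT 3, and 1.76 on KO. The mean of LTF and PGLYRP1 was −1.83, 1.41 and 3.91 on WT 1, WT 2 and WT 3, and −0.60 on KO. On this scale KO was 0.30 above the WT mean for the alarmins and 1.76 below it for the granule genes.

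The alarmin mean minus the granule mean was 0.20, 0.22 and 0.49 on WT 1, WT 2 and WT 3, against 2.36 on KO. KO exceeded the WT mean of 0.30 ± 0.16 (SD, n = 3) by 2.06, a 4.17-fold difference in the ratio, and it exceeded the highest WT array by 1.88. No p is given for this score over chosen genes, and 1 array against 3 cannot go below an exact permutation p of 0.25. The contrast was 2.16 against WT 1, the array that shares a slide with KO, and between 2.01 and 2.15 with a WT array left out.

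Each of the 6 pairs of an alarmin with a granule gene placed KO above all 3 WT arrays. The pairs reuse the same 5 genes, so they are not 6 separate results. The share over other gene pairs was not computed, and for single probes KO lay outside the WT range for 61.9%. The smallest margin was that of S100A8 minus LTF, which was 1.19, 0.51 and 0.66 on WT 1, WT 2 and WT 3, and 2.17 on KO. S100A12 minus PGLYRP1 had the largest margin, with 0.17, 1.48 and 1.70 on the WT arrays and 3.68 on KO. Margins over the highest WT array ran from 0.98 to 1.98, and the WT SDs of the pairs from 0.36 to 0.99. The SD of the mean contrast was smaller than that of any pair, since the ratios to LTF and to PGLYRP1 deviated in opposite directions on WT 1.

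On KO, pairs within a class left their WT means by less, from −0.79 to 0.39, against 1.39 to 2.57 for pairs across the classes. S100A9 minus S100A12 was −1.44, −2.18 and −1.95 on the WT arrays and −2.0 on KO, inside the WT range. LTF minus PGLYRP1 was −1.05, 1.23 and 1.29 on the WT arrays and 0.88 on KO, also inside it. Its WT SD of 1.33 was larger than that of any pair across the classes, 0.36 to 0.99. S100A8 was lower relative to the other alarmins on KO than on any WT array: S100A8 minus S100A12 was −0.03, 0.26 and 0.24 on the WT arrays and −0.63 on KO, while S100A8 minus S100A9 was 1.41, 2.44 and 2.20 on the WT arrays and 1.37 on KO. Over the 4 centred profiles, the root mean square distance between genes was 0.28 to 0.47 among the alarmins, 0.65 to 1.26 between an alarmin and a granule gene, and 0.96 between LTF and PGLYRP1.

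**Figure D3:**
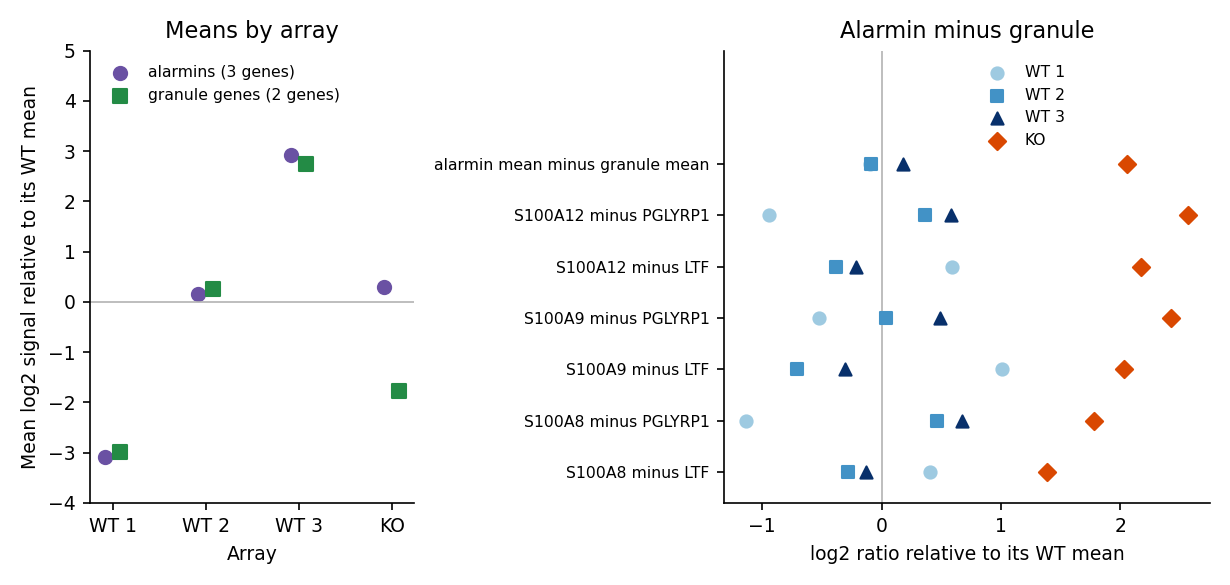
Left, mean log2 signal of the 3 alarmins and of LTF and PGLYRP1 on each array, relative to the WT mean of each class. Right, the log2 ratio of each alarmin to each granule gene, and of the class means, relative to its WT mean. KO lies above all WT arrays in every row, and WT 1 is hidden behind WT 2 in the row of class means.

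Other granule genes did not all follow LTF and PGLYRP1. Of 31 listed genes, 12 were measured, and 0 of them passed the limma test. KO was above the WT range for 5 genes, below it for 1 and inside it for 6, with a median difference of −0.40. The 6 inside the range were ARG1, HP, NPG4, PMAP-23, PR39 and PMAP-36, named here after their values were seen. They shared the WT pattern in part, with WT 2 and WT 3 each at least 2-fold above WT 1. NPG4, PMAP-23, PR39 and PMAP-36 are cathelicidins, antimicrobial peptides of pig neutrophil granules whose transcripts share sequence, so their probes may not tell them apart.

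PMAP-23 had log2 signals of −2.18, 1.93 and 4.47 on the WT arrays and −0.997 on KO. The alarmin mean minus PMAP-23 placed KO above the highest WT array by 2.21. For NPG4 that margin was 0.05, and for ARG1 and HP the ratio lay inside the WT range on KO. PR39 and PMAP-36 were not well above background on WT 1, so the place of KO among the WT ratios was not read for them.

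LYZ and SLPI, a lysozyme and a protease inhibitor that macrophages or epithelia also make, had no such WT pattern. LYZ had log2 signals of 3.14, 2.79 and 1.46 on the WT arrays and 6.46 on KO (difference 3.99, limma adjusted p = 0.371). SLPI had 0.05, −2.0 and −0.33 on the WT arrays and 3.28 on KO (difference 4.04, limma adjusted p = 0.396). CHI3L1, LCN2 and MMP9 were above the WT range as well, by differences of 1.66, 1.14 and 1.06 from the WT mean. The alarmin mean minus LYZ, SLPI, CHI3L1, LCN2 or MMP9 lay inside the WT range on KO. These ratios differed from their WT means by −3.70, −3.74, −1.37, −0.85 and −0.77, opposite in direction to the ratios to LTF and PGLYRP1. BPI was not well above background on WT 2 and KO, so its ratio was not read. MPO and ELANE were not analysed here.

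**Figure D4:**
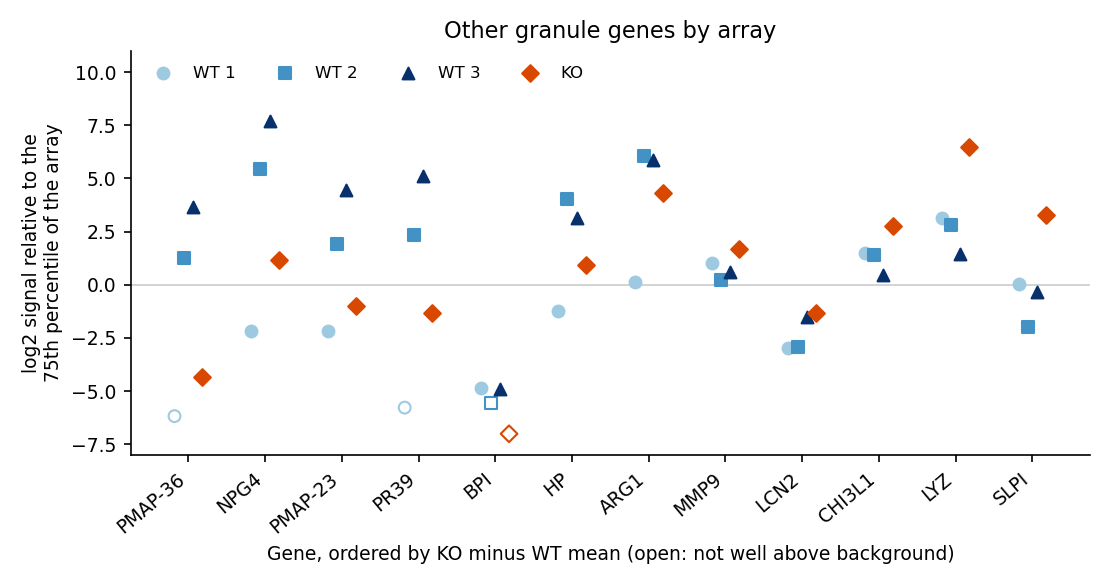
Log2 signal of the 12 other granule genes, with the array's 75th percentile at 0, ordered by the KO difference from the WT mean, with open symbols for spots not well above background. The genes with widely spread WT arrays have KO inside the WT range, the 5 genes at the right have KO above it, and the dim gene BPI has KO below it.

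Genes of neutrophil surface and machinery were measured next to the members. All 6 measured surface genes of 19 listed were above the WT range on KO, with a median difference of 1.73, and 38.1% of the 2742 named genes tested were also above it. TREM1, which amplifies inflammatory signals in myeloid cells, had log2 signals of −5.03, −4.54 and −4.58 on the WT arrays and −0.55 on KO (limma adjusted p = 0.284). C5AR1, the receptor of complement fragment C5a, differed by 3.07. CYBA and NCF1, which encode subunits of the phagocyte oxidase, were above the WT range by differences of 1.08 and 1.93 from the WT mean. None of these surface genes, nor CYBA or NCF1, had the stepwise WT order of the members, and 0 passed the limma test.

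Receptors and adaptors through which alarmins are sensed were also measured. Of 6 measured genes, 4 were above the WT range, 1 below and 1 inside, and 0 passed the limma test. CD14, the co-receptor of TLR4, had log2 signals of 0.52, 0.22 and 0.24 on the WT arrays and 3.41 on KO. The differences were 1.56 for TLR4 and 1.89 for its adaptor MYD88, and −1.68 for CD36, a scavenger receptor. Among neutrophil recruitment and growth genes, 7 of 9 were above the WT range, 1 below and 1 inside, with 0 past the limma test. IL1B and CXCL2, an inflammatory cytokine and a neutrophil chemokine, differed by 3.81 and 3.52. CXCL8, the main neutrophil chemokine in pigs, was named after its values were seen, with a difference of 8.44 and a signal well above background on 2 of 3 WT arrays.

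None of the measured close relatives of the members had their stepwise WT order. Of 16 other S100 genes, 5 were measured, with 3 above and 2 below the WT range on KO and 0 past the limma test. S100A6 had log2 signals of 2.59, 1.54 and 2.06 on the WT arrays and 4.08 on KO, and S100A11 differed by 0.78. Of the transferrin and peptidoglycan recognition relatives, 4 were measured, of which 1 was above, 1 below and 2 inside the WT range, with 0 past the limma test. TFRC, the transferrin receptor, differed by −2.72 and PGLYRP2 by 0.54. The myeloid transcription factors CEBPB, SPI1 and KLF6 were all above the WT range, by 3.42, 1.45 and 1.02 from the WT mean, with 0 past the limma test.

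Markers of other cells also differed between the arrays, many of them in other patterns than the members. Their part in the results for the members was not tested. Macrophage and monocyte markers were above the WT range on KO for 9 of 10 genes, and their summed signal, in multiples of the 75th percentile, was 548 to 708 on the WT arrays and 1140 on KO. All 10 were well above background on every array. Most of the sum came from the bright C1QA, C1QB and C1QC probes. VSIG4, the marker inside the WT range, was named after its values were seen. It had log2 signals of −0.88, 7.21 and 6.37 on the WT arrays and 4.64 on KO. Erythroid markers followed WT 1 against the other WT arrays: all 3 measured genes were at least 2-fold higher on WT 2 and WT 3 than on WT 1. Their summed signal was 1.61, 30.0 and 38.7 on WT 1, WT 2 and WT 3, against 2.60 on KO. The 3 genes differed in where KO lay. EPOR, the erythropoietin receptor gene, had log2 signals of 0.24, 2.67 and 3.59 on the WT arrays and −0.16 on KO, below the WT range. HBE1, a globin gene, had 2.53 to 2.80 on WT 2 and WT 3, −1.36 on WT 1 and 0.67 on KO. KLF1, a red cell transcription factor, had log2 signals of −4.68, 4.06 and 4.38 on the WT arrays and −3.17 on KO. Of 5 platelet markers, PPBP and ITGA2B had the stepwise WT order of the members. On KO, 3 of the 5 were lower than the WT mean, with a median difference of −1.29: ITGA2B and GP9 were below the WT range, at −2.15 and −1.29, and PPBP was inside it, at −1.53. ITGB3 and TBXAS1 were above the WT range, at 0.28 and 3.14. The summed signal of the 5, 615 to 742 on the WT arrays and 793 on KO, came almost wholly from the bright ITGB3 probe.

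**Figure D5:**
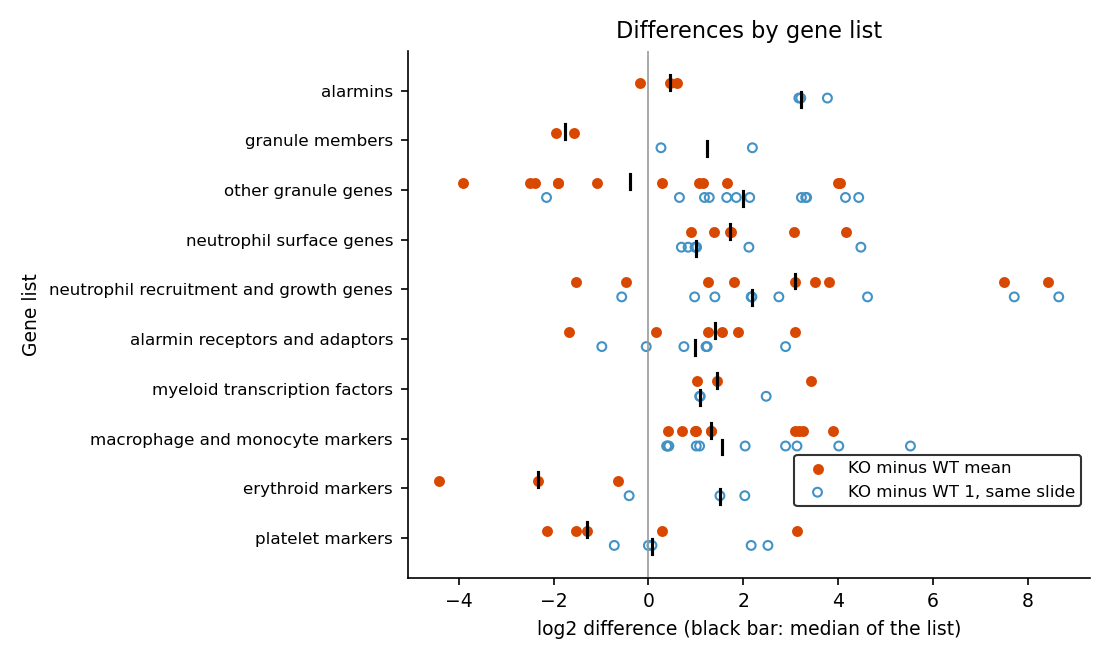
Log2 differences of KO from the WT mean (filled) and from WT 1 of the same slide (open) for each measured gene of 10 lists, with black bars at the list medians. Against the WT mean the alarmins lie near 0 and the granule members below it, against WT 1 both lie above 0, and the surface and macrophage genes lie above 0 in both.

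The genes whose profile over the 4 arrays lay nearest the members included platelet genes. Nearness was the root mean square distance of centred log2 values among 2427 named genes well above background on all arrays. RETN, the gene of resistin, was nearest the alarmin mean at 0.69, with log2 signals of −4.79, 0.10 and 2.58 on the WT arrays and −1.15 on KO. It was followed by PPBP, SNCG, TUBB1 and F5 at 0.88 to 1.03. The nearest gene to LTF was PPBP, a platelet chemokine precursor, at 0.045, ahead of PMAP-23, CMTM5, SELP and LOC100158011 at 0.38 to 0.51. ITGA2B, the platelet integrin alpha chain, was nearest PGLYRP1 at 0.12, ahead of FGFBP3, TUBB1, PTI and EPOR at 0.26 to 0.60. These distances describe 4 arrays only and carry no test.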

How the data were processed

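Per the file headers, the authors extracted 1-channel intensity values with Feature Extraction 11.0.1.1 (also in the submitters' processing notes), whereas the study's methods describe a dye pair. The deposited log2 table matched quantile-normalised processed signal and served as an alternative. Here, log2 processed signal minus the 75th percentile of each array was used, spots of a probe were averaged, 28 probes with outlier spots were left out, and 33470 probes well above background on at least 1 array were tested with limma 3.58.1 in R 4.3.3 (two-sided, Benjamini-Hochberg, tested on simulated data). Other values were computed with Python 3.11.15, pandas 2.3.3 and numpy 2.4.6. The probe with the highest mean stood for a gene. The array number limits the precision. Names came from RefSeq tables of Sscrofa11.1, which gave 6686 probes a symbol. No coordinates are given, because the files name no build.

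The members and lists were chosen with earlier results of these data known. Named genes were the members, up to 4 genes per list with the largest difference among those that every array measured and whose KO value left the WT range, the 5 nearest profiles, and IL2RG, MS4A1 and CD79A. Others are marked as named after their values were seen, or stand for a list or the tissue. Alternatives covered scaling, background correction, filters, the test, the slide and each WT array. Normexp used median spot signals, since mean signals were not in the files used here. Results on 2 listed genes are not reported here.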

Additional observations from a re-analysis of the deposited data

How the results depend on the processing

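None of the 5 genes was called under any of 15 alternatives. The mean of the probes of a gene, counted among these, had no test of its own. It carried over the adjusted p of the main fit, so it could not change the calls. Over all probes, 6 were called with an intensity trend in limma, 4 with normexp and quantile normalisation, and 1333 by the methods' t-test, of which 0 remained after Benjamini-Hochberg or Bonferroni adjustment. With a median shift, the S100A8 difference and the median of the 5 genes became 0.057. With slide as a block, the differences were 3.17 for S100A8, 2.19 for LTF, 0.26 for PGLYRP1 and 3.17 for the median. With a WT array left out, they ran from −1.86 to 1.32 for S100A8 and the median, −0.91 to 1.88 for S100A9, −0.98 to 2.07 for S100A12, −3.45 to 0.0025 for LTF and −3.07 to −0.79 for PGLYRP1. The contrast of alarmins with granule genes kept its sign under 19 alternatives, from 1.70 to 2.30, and 2.01 to 2.15 with a WT array left out. Not all of these could change it. A shift of a whole array cancels in the contrast, so the median shift and the other 75th percentile could only return 2.06. The changes of filter leave the values of the member probes as they are, so they too could only return 2.06. Keeping the outlier spots also left it at 2.06. It was 1.70 with normexp and quantile normalisation together and 1.93 with quantile normalisation alone, and, chosen after seeing the data, 1.87 with the dimmer LTF probe, 2.30 without S100A8, 2.26 without LTF and 1.86 without PGLYRP1. The median within slide 1 ran from 2.47 to 3.32 over 9 alternatives. The cause of these shifts was not tested. No paired analysis was possible because the KO title carries no replicate number. Signal over background limited the dimmer LTF probe on WT 1.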
